A study of Mus musculus with 9 samples.

Results

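The semaphorins, plexins and neuropilins, a family of guidance ligands and their receptors, were followed in cells sorted from mouse embryonic forelimbs at 3 stages of development. A gene was counted as a member if a probe set of the array was annotated with its symbol alone and that symbol was Sema followed by a digit and a letter, Plxn followed by a letter and a digit, Nrp1 or Nrp2. The rule found 31 of the 18193 genes on the array: 20 semaphorins, 9 plexins and 2 neuropilins, measured by 78 probe sets. Of these, 29 had enough signal to be tested, and the remaining 2 were Sema3g and Sema6b.

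All samples came from Scx-GFP embryos, whose cells make green fluorescent protein (GFP) where they use Scx, the gene of the tendon transcription factor scleraxis. GFP-positive forelimb cells formed 3 groups by embryonic day (E), which were E11.5, E12.5 and then E14.5, with 3 arrays per stage named A, B and C. The embryos were collected after natural matings, and no mutation, treatment or GFP-negative group is part of the samples analysed here, so each comparison sets a stage against an earlier one. The reporter selects Scx activity rather than a purified tendon cell, and each array averages over all cells that passed the gate. In such bulk samples, fewer cells of a type and less RNA per cell cannot be told apart. Whether the arrays of a stage came from different litters is not stated, and the p-values therefore measure only the spread between these samples, which may be technical. The labels name 2 cell sorters but do not tie samples to either, so sorter could not be tested as a batch.

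Semaphorins are secreted or membrane-bound ligands, best known as repellents and attractants of growing axons, that also act on blood vessels, neural crest and skeletal cells. Plexins are their main receptors: the cytoplasmic part of a plexin switches off small GTPases of the Ras family and thereby changes the actin cytoskeleton and integrin adhesion of the receiving cell. Most secreted semaphorins, those of class 3, bind a neuropilin that partners an A-type plexin, and neuropilins also bind vascular endothelial growth factors. In the limb, the family is known for steering motor and sensory axons and vessels through the mesenchyme.

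The values are MAS5 signals, a linear intensity per probe set that the authors scaled to a common trimmed mean of 500 in every array. The median signal ranged from 68.7 to 118.5 over the 9 arrays and rose from A to C at each stage. For A, B and C it was 68.7, 79.6 and 106.3 at E11.5 and 69.5, 94.5 and 105.8 at E12.5. At E14.5 it was 81.5, 91.1 and 118.5. The tendon label was checked against 6 tendon markers. Tnmd, Thbs4, Fmod, Col1a1 and Mkx rose between E11.5 and E14.5, and Scx, at 19338 ± 3927 (SD, n = 3) and 11152 ± 3339, fell (log2 change -0.81 ± 0.22, adjusted p = 0.0164), a call lost without array E11.5 B (adjusted p = 0.0555), array E11.5 C (0.0545), array E14.5 A (0.0501) or array E14.5 B (0.0589). Tnmd had enough signal to be tested only with its E14.5 arrays. Array A of E14.5 stood apart in cartilage genes: 6 cartilage markers summed to 60289 in it, against 15014 in E14.5 B, 7193 in E14.5 C and 15294 to 28165 in the earlier arrays. Counts are therefore also given without the 3 letter A arrays.

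The comparison of E14.5 with E11.5 asked which members changed from the first to the last stage. In all, 11 of the 29 tested members rose and 4 fell, a share of 37.9% higher against 22.9% of all 11575 genes tested, and of 13.8% lower against 17.7%. A gene was called in limma's moderated test at an adjusted p under 0.05, with Benjamini-Hochberg adjustment over all genes tested. The members that rose were the class 3 semaphorins Sema3a, Sema3c, Sema3d and Sema3e, the membrane-bound Sema5a, Sema5b, Sema6a and Sema6d, the plexins Plxnc1 and Plxnd1, and Nrp1. Sema3e could be tested only because it was high at E14.5, so its rise is no support for the higher share. Those that fell were Sema4a, Sema4c, Plxnb1 and Nrp2. The median log2 change of the tested members was 0.31, beside 0.00 for all genes tested, and the median size of the change was 0.61 beside 0.41. Semaphorins accounted for 8 of the rises and 2 of the falls among 18 tested, and plexins for 2 rises and 1 fall among 9.

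**Figure D1:**
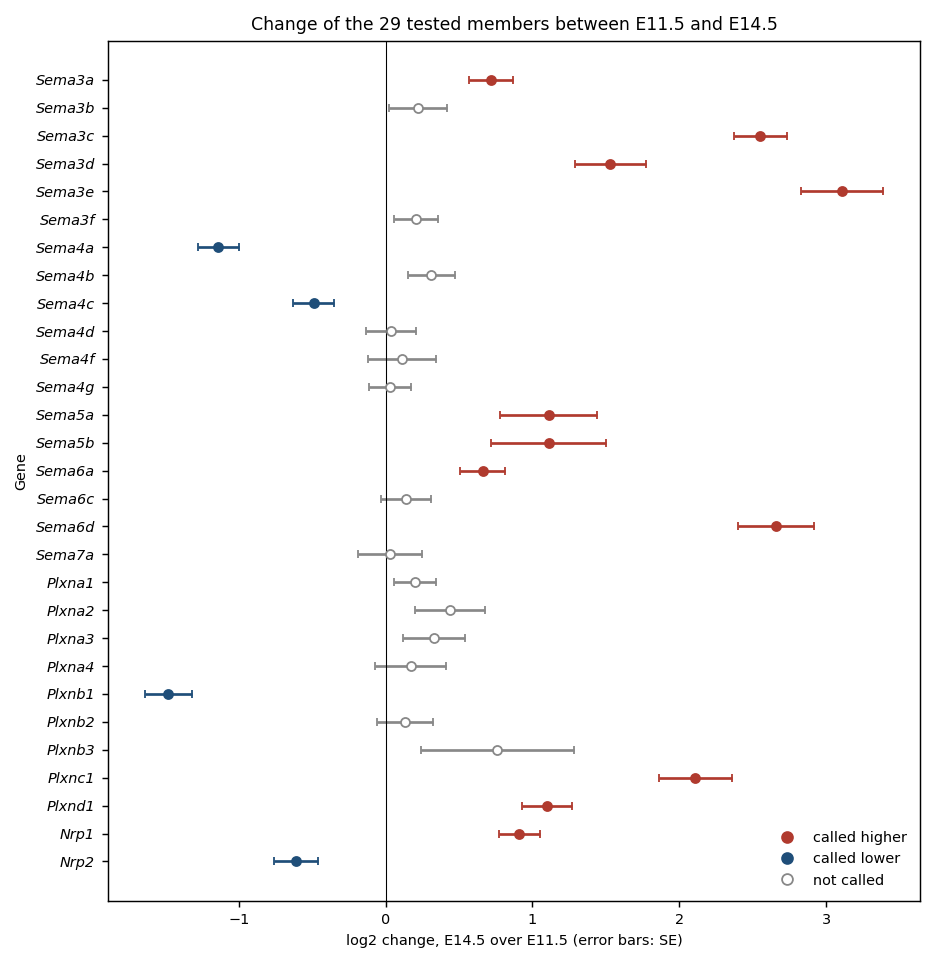
Log2 change between E11.5 and E14.5 (x axis) of each of the 29 tested members (y axis), with the SE from the fit as bars; red marks members called higher, blue those called lower and open grey those not called. Sema3e (3.11), Sema6d (2.66), Sema3c (2.55) and Plxnc1 (2.11) lie farthest to the right and Plxnb1 (-1.48) farthest to the left. Sema3e passed the signal filter only with its E14.5 arrays.

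Between E11.5 and E12.5, 2 members rose, Sema3c and Sema3e, beside 3.11% of all genes tested, and 0 fell, beside 0.441%. At an unadjusted p under 0.05 in limma, 8 members were higher and 0 lower. The share of all genes at that cutoff was not computed, so no trend of the family is read from this count. With the array letter as a block, which the letters' correlations allow for this interval and the next, Plxnc1 was called too (adjusted p = 0.013). In that fit 3 members rose, beside 3.92% of all genes. Between E12.5 and E14.5, 9 members rose, beside 12.6% of all genes, and 4 fell, beside 9.32%. The block added Sema3d (adjusted p = 0.0324) and Sema5a (0.0229) to the rises, for 11, and removed Sema4g (0.0515) from the falls, for 3. Of all genes, 14.8% rose and 11.9% fell in that fit. Without the letter A arrays, 11 members rose and 2 fell between E11.5 and E14.5, beside 18.3% and 10.9% of all genes. In the earlier interval 2 then rose, beside 1.94%. In the later one 6 rose and 2 fell, beside 6.78% and 2.58%. Centring each array on its median moved the median change of all genes to -0.20 between E11.5 and E14.5 and to -0.16 in the later interval, and left 7 rises and 2 falls between E11.5 and E14.5, beside 11% of all genes called higher and 9.14% lower. In the later interval it left 6 rises and 2 falls, beside 5.38% and 2.34%. The 12 tested members called in none of the 3 comparisons were Sema3b, Sema3f, Sema4b, Sema4d, Sema4f, Sema6c, Sema7a, Plxna1, Plxna3, Plxna4, Plxnb2 and Plxnb3.

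The class 3 semaphorins are the secreted ligands of the family. The 4 that rose, Sema3d, Sema3a, Sema3e and Sema3c, follow one another in this order on mouse chromosome 5, with 0, 3 and 15 other protein-coding genes between neighbours in the RefSeq table of GRCm38.p6. The 250 bases before the RefSeq start of each are printed because these neighbours moved in the same direction. The windows are chr5:12382916-12383165, chr5:13396534-13396783, chr5:14025026-14025275 and chr5:17574566-17574815 of GRCm38.p6, all on the + strand and printed 5′ to 3′, with capitals marking CANNTG, the E-box that basic helix-loop-helix factors such as scleraxis recognise as a class.
Sema3d: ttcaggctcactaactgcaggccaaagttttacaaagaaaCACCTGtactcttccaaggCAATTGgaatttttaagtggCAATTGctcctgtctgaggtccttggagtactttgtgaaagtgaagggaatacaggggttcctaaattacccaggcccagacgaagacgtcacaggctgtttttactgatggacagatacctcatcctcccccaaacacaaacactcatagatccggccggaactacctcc
Sema3a: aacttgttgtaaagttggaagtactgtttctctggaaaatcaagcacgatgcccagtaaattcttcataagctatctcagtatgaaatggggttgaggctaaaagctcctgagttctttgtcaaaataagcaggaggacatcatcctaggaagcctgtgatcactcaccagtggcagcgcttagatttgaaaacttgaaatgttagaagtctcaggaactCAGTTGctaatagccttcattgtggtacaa
Sema3e: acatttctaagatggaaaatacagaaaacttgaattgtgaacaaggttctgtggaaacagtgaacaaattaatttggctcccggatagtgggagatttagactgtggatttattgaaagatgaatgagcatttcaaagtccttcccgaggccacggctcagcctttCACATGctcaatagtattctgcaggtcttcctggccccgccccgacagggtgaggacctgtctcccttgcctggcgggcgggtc
Sema3c: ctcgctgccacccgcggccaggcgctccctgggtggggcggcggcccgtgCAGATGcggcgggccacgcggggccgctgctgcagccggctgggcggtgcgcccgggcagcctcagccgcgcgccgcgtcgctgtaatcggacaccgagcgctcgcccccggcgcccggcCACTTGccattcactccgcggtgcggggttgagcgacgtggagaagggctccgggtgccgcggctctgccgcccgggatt
CANNTG reads the same on both strands, and the windows held 3, 1, 1 and 2 matches in the order printed. Of all 32851 RefSeq windows of this length, 66.2% held at least 1, so a match is common. TATAAA, searched on both strands, was in 12.4% of all windows and in none of these 4. The GC content was 46.8%, 40.8%, 48.0% and 78.4%, against a median of 52.4% over all windows. RefSeq gave such windows for 26 of the 31 members. These matches describe the letters and say nothing of a factor's binding.

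Sema3c, a ligand of both neuropilins that is known for its part in the outflow tract of the heart, rose in each interval. The signal of Sema3c was 625, 835 and 701 at E11.5, 1238, 1465 and 1845 at E12.5 and 4565, 4046 and 3979.9 at E14.5, in the order A, B and C used throughout. The stages did not overlap, with every E12.5 array above every E11.5 array and every E14.5 array above both. The change between E11.5 and E14.5 was 5.86-fold (log2 change 2.55 ± 0.18, adjusted p = 8.16e-06), and it was 1.06 ± 0.18 in the earlier interval (adjusted p = 0.0134) and 1.49 ± 0.18 in the later one (adjusted p = 0.000512). The call of the earlier interval was lost with arrays centred on their medians (adjusted p = 0.169), with the mean of all probe sets (0.0652) and without array E12.5 B (0.059) or array E12.5 C (0.0555).

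Sema3e, which unlike its relatives binds Plxnd1 without a neuropilin and repels vessels, was the other member called in all 3 comparisons. The signal of Sema3e was 2.81, 35.8 and 41.4 at E11.5, 73, 100.4 and 75.4 at E12.5 and 389.9, 257 and 216 at E14.5. The E11.5 A value lies under the floor of 22.7 that was set before the log2 transformation, so the size of the change depends on that floor. In the signals before any floor, again no arrays of different stages overlapped. Every E11.5 array and arrays E12.5 A and E12.5 C lay under the filter signal of 90.6, so the order of E11.5 and E12.5 rests on dim signals. Sema3e exceeded the filter signal in 4 arrays, E12.5 B and all those of E14.5, so it could be tested only because it was high at E14.5. It rose 8.64-fold over both intervals (log2 change 3.11 ± 0.28, adjusted p = 3.45e-05). That log2 change was 1.62 with the floor at the median of all signals and 4.11 with no floor. In the earlier interval it was 1.35 ± 0.28 (adjusted p = 0.0335) and in the later one 1.76 ± 0.28 (adjusted p = 0.00232). The earlier call was lost after quantile normalization (adjusted p = 0.0623), with the floor at the median of all signals (log2 change 0.05, adjusted p = 0.949), with no floor (log2 change 2.35, adjusted p = 0.219), with no filter (0.117), with the mean of all probe sets (0.132) and without array E11.5 A (0.0871), array E11.5 B (0.0762), array E12.5 A (0.0618), array E12.5 B (0.13), array E12.5 C (0.097) or array E14.5 B (0.0568), and the later call with no floor (adjusted p = 0.176).

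Sema3d, a neuropilin ligand known for guiding axons and neural crest, rose between E11.5 and E14.5. The signal of Sema3d was 576, 394 and 718 at E11.5, 938, 974 and 916 at E12.5 and 2031, 1228 and 1582 at E14.5. Again each stage lay above the one before it in all arrays, with a mean of 563 ± 162 (SD, n = 3) at E11.5 and 1614 ± 403 at E14.5. The rise was 2.89-fold (log2 change 1.53 ± 0.24, adjusted p = 0.000959). The changes of the separate intervals were 0.79 ± 0.24 (adjusted p = 0.129) and 0.75 ± 0.24 (adjusted p = 0.0516), neither of them called. The later one was called after quantile normalization (adjusted p = 0.0483), with the floor at the median of all signals (0.0386), with a trended and robust prior (0.024), with the array letter as a block (0.0324), in a fit of the 6 arrays compared (0.0339) and without array E11.5 B (0.0265), array E11.5 C (0.0401) or array E14.5 B (0.0342).

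Sema3a, the ligand of Nrp1 that repels axons and is also known to act on bone, had the smallest of the 4 changes. The signal of Sema3a was 738, 882 and 973 at E11.5, 908, 1031 and 1071 at E12.5 and 1249, 1466 and 1533 at E14.5. The E14.5 arrays lay above all others, while E11.5 and E12.5 overlapped. The change was 1.64-fold between E11.5 and E14.5 (log2 change 0.72 ± 0.15, adjusted p = 0.00466) and 0.50 ± 0.15 in the later interval (adjusted p = 0.0431). The first call was lost with arrays centred on their medians (adjusted p = 0.241) and with the mean of all probe sets (log2 change 0.39, adjusted p = 0.3). The second was lost with arrays centred on their medians (adjusted p = 0.538), with no filter (0.0526), with the mean of all probe sets (log2 change 0.30, adjusted p = 0.493), without the letter A arrays (0.0844) and without array E11.5 B (0.0526), array E12.5 A (0.138), array E12.5 B (0.0921), array E12.5 C (0.0725), array E14.5 B (0.101) or array E14.5 C (0.124).

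The remaining class 3 genes gave no call. Sema3f, the main ligand of Nrp2, was at 377 ± 35.2 (SD, n = 3) at E11.5 and 437 ± 41.5 at E14.5, with overlapping arrays (log2 change 0.21 ± 0.15, adjusted p = 0.282). Sema3b, which binds both neuropilins, was at 122, 126 and 127 at E11.5, 160.2, 172 and 201 at E12.5 and 201, 119 and 128 at E14.5. Its E12.5 arrays lay above those of E11.5 (log2 change 0.50 ± 0.20, adjusted p = 0.246), and without E14.5 A the later fall was called (log2 change -0.52, adjusted p = 0.0404). Sema3g, a ligand of Nrp2, stayed between 36.1 and 74.5 and exceeded the filter signal of 90.6 in 0 of 9 arrays.

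**Figure D2:**
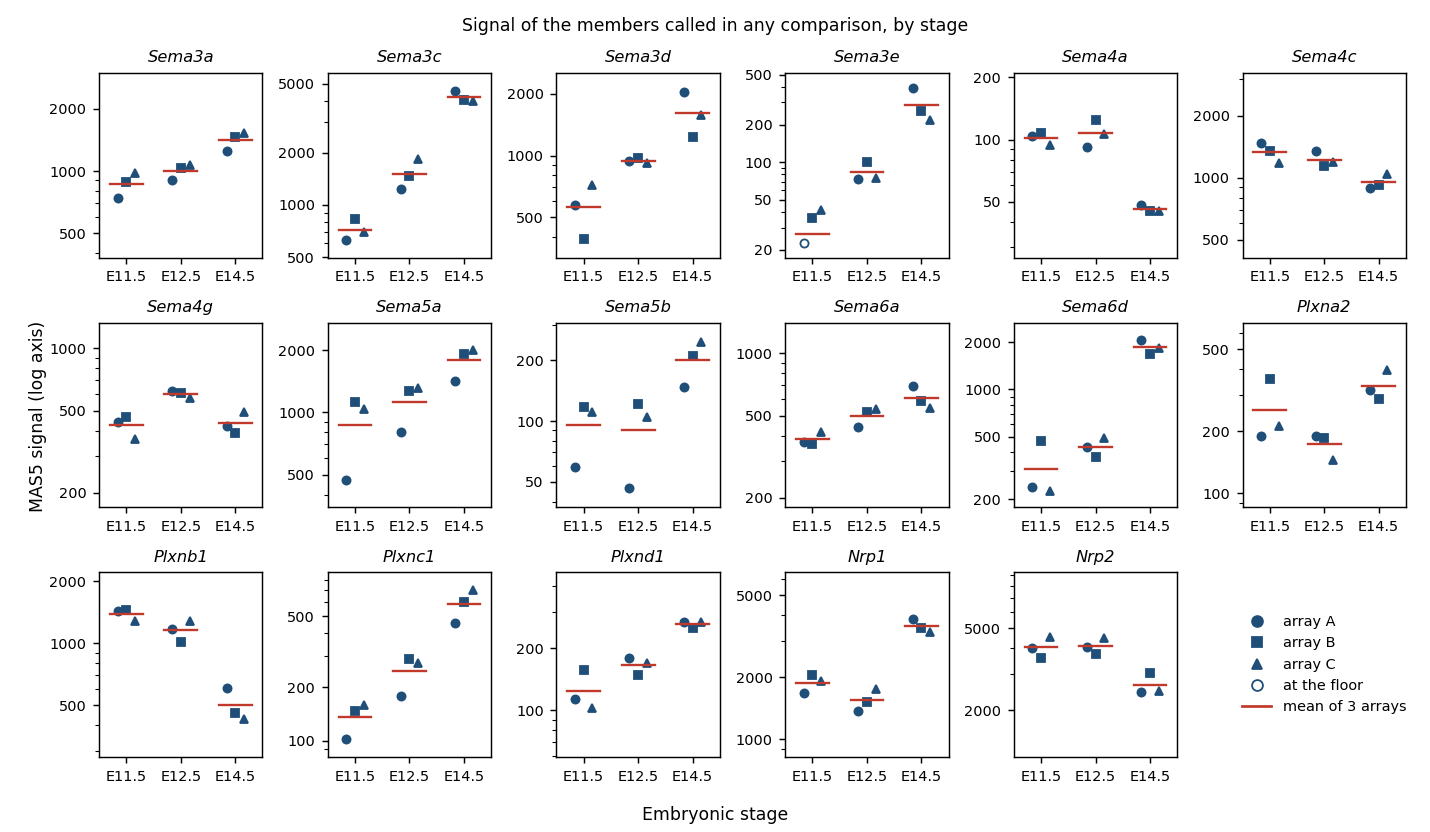
MAS5 signal (log axis, a separate scale for each gene) at the 3 stages for the 17 members called in any comparison; symbols give arrays A, B and C, an open symbol is a value at the floor and the red line is the mean of 3 arrays. Sema3c, Sema3d and Sema3e rise without overlap at each stage, Plxnb1 drops at E14.5 to between 429.8 and 609.6, and Nrp1 and Nrp2 move in opposite directions at E14.5.

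Class 4 semaphorins are membrane-bound ligands, several of them of B-type plexins. Of those called in this class, Sema4a and Sema4c were lower at E14.5 than at E11.5. Sema4g was lower at E14.5 than at E12.5 only, with a log2 change of 0.03 from E11.5. The signal of Sema4a was 104, 108 and 94.5 at E11.5, 92.2, 124 and 106 at E12.5 and 48.3, 45.2 and 45.3 at E14.5. Sema4a, a ligand known from T cells and vessels, overlapped between E11.5 and E12.5 (0.07 ± 0.14, not called) and lay lower in all E14.5 arrays, at 2.2-fold less than at E11.5 (log2 change -1.14 ± 0.14, adjusted p = 0.000242) and -1.20 ± 0.14 against E12.5 (adjusted p = 0.000446). These signals are close to the filter value, and with the floor at the median of all signals the changes were -0.17 (0.363) and -0.24 (0.245), not called. A second probe set, of a type that can bind related sequences, changed by -0.79 between E11.5 and E14.5 without overlap of the arrays.

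Sema4c, the ligand of Plxnb2, fell as well. The signal of Sema4c was 1473, 1347 and 1184 at E11.5, 1340.1, 1133 and 1192 at E12.5 and 890.1, 917 and 1038 at E14.5. The E14.5 arrays lay below all earlier ones, and the change from E11.5 was 1.4-fold (log2 change -0.49 ± 0.14, adjusted p = 0.0184). This call was lost with arrays centred on their medians (adjusted p = 0.142), without the letter A arrays (0.131) and without array E11.5 A (0.0681), array E14.5 A (0.0506) or array E14.5 B (0.0528). Sema4g, of the same class, had its highest signals at E12.5, with 443, 466 and 365 at E11.5, 619, 605 and 576 at E12.5 and 421, 391 and 489.8 at E14.5. All E12.5 arrays were above those of both other stages, but the rise was not called (log2 change 0.51 ± 0.14, adjusted p = 0.104). The fall was (log2 change -0.47 ± 0.14, adjusted p = 0.0418), and that call was lost with arrays centred on their medians (adjusted p = 0.349), with the mean of all probe sets (0.0509), with the array letter as a block (0.0515), in a fit of the 6 arrays compared (0.0501), without the letter A arrays (0.211) and without array E11.5 A (0.0563), array E12.5 A (0.115), array E12.5 B (0.107), array E12.5 C (0.0823), array E14.5 A (0.0918) or array E14.5 B (0.114).

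For the other class 4 genes no change was called. Sema4d, the ligand of Plxnb1 that is known to restrain bone formation, was at 294 ± 21.1 at E11.5, 289.8 ± 61 at E12.5 and 302 ± 21 at E14.5 (SD, n = 3 each), a log2 change of 0.04 ± 0.17 between the ends. Sema4b changed by 0.31 ± 0.16 and Sema4f by 0.11 ± 0.23 over the same span. The E14.5 arrays of Sema4b lay above those of E11.5, while those of Sema4d and Sema4f overlapped.

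Classes 5, 6 and 7 are anchored in the membrane, and the members called among them rose. Sema6d, known as a ligand of Plxna1 in the developing heart, changed late. The signal of Sema6d was 238, 466 and 226 at E11.5, 432, 373 and 491 at E12.5 and 2077, 1673 and 1845 at E14.5. The E11.5 and E12.5 arrays overlapped, and the E14.5 arrays lay far above both. Sema6d rose 6.34-fold between E11.5 and E14.5 (log2 change 2.66 ± 0.26, adjusted p = 6.16e-05), and 2.11 ± 0.26 in the later interval alone (adjusted p = 0.000633). The smaller change to E12.5 (0.55 ± 0.26) was called without array E11.5 B (adjusted p = 0.0396). Its 3 other probe sets were dim, with means of at most 70.0 per stage, and averaging all 4 gave a change of 0.91 between E11.5 and E14.5, still called, and of 0.43 in the later interval (adjusted p = 0.14), no longer called.

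Sema6a, a transmembrane ligand of Plxna2 and Plxna4, rose between E11.5 and E14.5. Its signal was 371, 363 and 417 at E11.5, 438, 523 and 541 at E12.5 and 695, 587 and 547 at E14.5, without overlap between stages. Between E11.5 and E14.5 this was 1.58-fold (log2 change 0.66 ± 0.15, adjusted p = 0.00574), a call lost with arrays centred on their medians (adjusted p = 0.322), and neither interval alone was called. Sema6c changed by 0.14 ± 0.17 with overlapping arrays. Sema6b exceeded the filter in 1 array, E12.5 A, at 129, and lay between 16.2 and 56.6 in the others.

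Sema5a and Sema5b carry thrombospondin repeats beside the semaphorin domain. The signal of Sema5a was 469, 1118 and 1034 at E11.5, 800.4, 1268 and 1311 at E12.5 and 1418, 1931 and 2012 at E14.5. All E14.5 arrays of Sema5a were above those of the earlier stages, and array A was the lowest of each stage. The change between E11.5 and E14.5 was 2.17-fold (log2 change 1.11 ± 0.33, adjusted p = 0.0246), a call lost with no filter (adjusted p = 0.0769) and without array E11.5 A (log2 change 0.72, adjusted p = 0.056), array E14.5 B (0.0699) or array E14.5 C (0.0733). In the later interval it was 0.68 ± 0.33 (adjusted p = 0.174), and with the letter as a block 0.68 ± 0.17 (adjusted p = 0.0229).

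The signal of Sema5b was 59.2, 118 and 111 at E11.5, 46.5, 121 and 105 at E12.5 and 147, 211 and 247 at E14.5. Array A was again the lowest of each stage, and the E14.5 arrays lay above all earlier ones. Sema5b was called between E11.5 and E14.5 (log2 change 1.11 ± 0.39, adjusted p = 0.0469) and between E12.5 and E14.5 (log2 change 1.23 ± 0.39, adjusted p = 0.0496), both close to the threshold. The first call was lost with no floor (adjusted p = 0.0509), with no filter (0.129) and without array E11.5 A (0.154), array E11.5 B (0.0537), array E11.5 C (0.0595), array E12.5 C (0.056), array E14.5 B (0.11) or array E14.5 C (0.134). The second was lost with no floor (adjusted p = 0.0544), with no filter (0.132), with the mean of all probe sets (0.053), in a fit of the 6 arrays compared (0.0545) and without array E11.5 B (0.0562), array E11.5 C (0.062), array E12.5 A (log2 change 0.81, adjusted p = 0.138), array E12.5 C (0.0678), array E14.5 A (0.0532), array E14.5 B (0.11) or array E14.5 C (0.14). Sema7a, the lipid-anchored ligand of Plxnc1, was at 148, 102 and 122 at E11.5 and 142, 119 and 115 at E14.5, with overlapping arrays and a change of 0.03 ± 0.22.

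The plexins are the signalling receptors. Plxnb1, the receptor of Sema4d that activates RhoA, had the largest fall among the tested members. The signal of Plxnb1 was 1429.5, 1446 and 1277 at E11.5, 1177, 1019 and 1277 at E12.5 and 609.6, 461 and 429.8 at E14.5. The E14.5 arrays lay well below all 6 earlier ones, while the E11.5 and E12.5 arrays almost touched. Plxnb1 fell 2.8-fold from E11.5 to E14.5 (log2 change -1.48 ± 0.16, adjusted p = 0.000127) and between E12.5 and E14.5 alone by -1.22 ± 0.16 on the log2 scale (adjusted p = 0.000992), and the earlier change of -0.26 ± 0.16 was not called. Both calls held under all 19 alternatives, with log2 changes from -1.68 to -1.21 between E11.5 and E14.5. A second probe set of Plxnb1 changed by -0.94 without overlap.

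Plxnb2, the receptor of Sema4c, gave no call: its signal was 2661, 3558 and 2226 at E11.5 and 3232, 2603 and 3263 at E14.5, with overlapping arrays (log2 change 0.13 ± 0.19, adjusted p = 0.624). Plxnb3, a receptor of Sema5a, was dim and scattered, with 36.1, 28 and 138 at E11.5, 75.8, 109 and 156 at E12.5 and 89.4, 77.1 and 97.6 at E14.5. Its changes were 0.76 ± 0.52 between E11.5 and E14.5 and 1.07 ± 0.52 in the earlier interval, neither called. The array E11.5 C decided this, since without it they were 1.46 (adjusted p = 0.00487) and 1.78 (0.0185).

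Plxnc1, the receptor of Sema7a, rose between E11.5 and E14.5. The signal of Plxnc1 was 102, 147 and 159 at E11.5, 177, 286 and 272 at E12.5 and 459, 598 and 701 at E14.5. Every array lay above every array of the stage before, and the mean went from 136 ± 30.1 (SD, n = 3) to 586 ± 121. The change was 4.32-fold between E11.5 and E14.5 (log2 change 2.11 ± 0.25, adjusted p = 0.000188) and 1.27 ± 0.25 in the later interval (adjusted p = 0.00694). In the earlier interval it was 0.85 ± 0.25 (adjusted p = 0.116), and with the letter as a block 0.85 ± 0.12 (adjusted p = 0.013). With the mean of its 6 probe sets, 4 of them below the filter in every array, the change between E11.5 and E14.5 was 0.78, still called, and the later one 0.50 (adjusted p = 0.0534).

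Plxnd1, the receptor of Sema3e that is known from endothelial cells, also rose. The signal of Plxnd1 was 113, 157 and 103 at E11.5, 179.6, 148 and 171 at E12.5 and 267, 252 and 269 at E14.5. The E14.5 arrays were closely spaced and above all others, and E11.5 B lay within the range of E12.5. Plxnd1 changed 2.14-fold between E11.5 and E14.5 (log2 change 1.10 ± 0.17, adjusted p = 0.000882) and by 0.66 ± 0.17 in the later interval (adjusted p = 0.0214). The first call was lost with arrays centred on their medians (adjusted p = 0.0558), the second after quantile normalization (adjusted p = 0.12), with arrays centred on their medians (0.401), without the letter A arrays (0.102) and without array E12.5 B (0.0789), array E12.5 C (0.0526), array E14.5 A (0.0538) or array E14.5 C (0.0616).

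The A-type plexins, which partner the neuropilins, gave 1 call. The signal of Plxna2 was 189.7, 356 and 213 at E11.5, 189, 186 and 145 at E12.5 and 317, 286 and 396 at E14.5. Plxna2 was lowest at E12.5, where arrays A and B lay just under the lowest of E11.5 and array C further below, and rose from there to E14.5 (log2 change 0.94 ± 0.24, adjusted p = 0.0226). The call was lost with arrays centred on their medians (adjusted p = 0.165), with no filter (0.0633), with the mean of all probe sets (log2 change 0.57, adjusted p = 0.191), without the letter A arrays (0.0777) and without array E12.5 B (0.0502), array E12.5 C (0.0774) or array E14.5 C (0.0763). Between E11.5 and E14.5 its change was 0.44 ± 0.24 with overlapping arrays, and without E11.5 B it was 0.71 (adjusted p = 0.0215). For Plxna1 the signal was 785, 866 and 651 at E11.5 and 893, 873 and 868 at E14.5. The E14.5 arrays were the higher, by 0.20 ± 0.14, but the difference was not called (adjusted p = 0.278). Plxna3 changed by 0.33 ± 0.21 and Plxna4 by 0.17 ± 0.24, and the arrays of both overlapped.

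The neuropilins moved in opposite directions. The signal of Nrp1 was 1685, 2052 and 1916 at E11.5, 1379, 1511 and 1751 at E12.5 and 3842, 3481 and 3302 at E14.5. Nrp1, the co-receptor of Sema3a and of vascular endothelial growth factor, was highest in all E14.5 arrays. It rose 1.88-fold from E11.5 to E14.5 (log2 change 0.91 ± 0.14, adjusted p = 0.000958) and 2.3-fold from E12.5 (log2 change 1.20 ± 0.14, adjusted p = 0.000516). The change between E11.5 and E12.5 was -0.29 ± 0.14, with overlapping arrays, and was not called. Other probe sets of Nrp1, which were not tested, changed in that interval by -0.40 and -0.57 without overlap and by -0.88 with overlap. The call between E11.5 and E14.5 was lost with arrays centred on their medians (adjusted p = 0.113) and with the mean of all probe sets (log2 change 0.58, adjusted p = 0.0666), while that of the later interval was kept under all 19 alternatives.

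The signal of Nrp2 was 3995, 3597 and 4532 at E11.5, 4068, 3752 and 4462 at E12.5 and 2438, 3047 and 2484 at E14.5. Nrp2, the co-receptor of Sema3f and of Vegfc in lymphatic vessels, overlapped between E11.5 and E12.5 (0.02 ± 0.15, not called) and was lower in all E14.5 arrays. It fell 1.52-fold from E11.5 to E14.5 (log2 change -0.61 ± 0.15, adjusted p = 0.00958) and changed by -0.63 ± 0.15 from E12.5 (adjusted p = 0.0157). The first call was lost with arrays centred on their medians (adjusted p = 0.0734) and without the letter A arrays (0.0823), the second with arrays centred on their medians (adjusted p = 0.189), with the mean of all probe sets (0.17), without the letter A arrays (0.127) and without array E12.5 C (0.0588) or array E14.5 C (0.0528). Within each array, the log2 ratio of Nrp1 to Nrp2, set to a mean of 0 at E11.5, was -0.15, 0.29 and -0.14 at E11.5, -0.46, -0.21 and -0.25 at E12.5 and 1.76, 1.29 and 1.51 at E14.5. The ratio was therefore higher in every E14.5 array than in any earlier one, by 1.52 over E11.5 and 1.83 over E12.5. Between E11.5 and E12.5 the ratio changed by -0.31, also without overlap. An exact two-sided permutation test of 3 arrays against 3 gave p = 0.1 for each of these 3 differences, the smallest it can give, so it does not separate the large ones from the small one.

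The comparison of the intervals asked whether a member changed by different amounts before and after E12.5. The contrast was the change of the later interval minus that of the earlier one. Nrp1 was called in it (difference 1.49 ± 0.25 on the log2 scale, adjusted p = 0.0336), 1 of 29 members beside 0.631% of all genes with a positive difference, and 0 members beside 0.138% with a negative one. At an unadjusted p under 0.05 in limma, 3 members had a positive difference and 5 a negative one. The share of all genes at this cutoff was not computed, so no trend is read from these counts. A negative difference can also be a larger fall in the later interval, as for Plxnb1 (-0.26, then -1.22). The Nrp1 call was kept under 5 of 18 alternatives and lost with arrays centred on their medians (adjusted p = 0.534), with no floor (0.0617), with no filter (0.0506), with the mean of all probe sets (0.119), without the letter A arrays (0.176) and without array E11.5 B (0.0646), array E11.5 C (0.0719), array E12.5 A (0.154), array E12.5 B (0.129), array E12.5 C (0.0583), array E14.5 A (0.0567), array E14.5 B (0.0771) or array E14.5 C (0.0585). Sema4a missed the threshold (-1.27 ± 0.24, adjusted p = 0.0538), as did Sema6d (1.56 ± 0.45, adjusted p = 0.197) and Plxna2 (1.44 ± 0.42, adjusted p = 0.203). For Sema3e the difference was 0.42 ± 0.48 (adjusted p = 0.803), and it was 1.52 (adjusted p = 0.0478) with the floor at the median of all signals. The intervals differ in length, from E11.5 to E12.5 and from E12.5 to E14.5, so equal log2 changes are not equal rates.

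**Figure D3:**
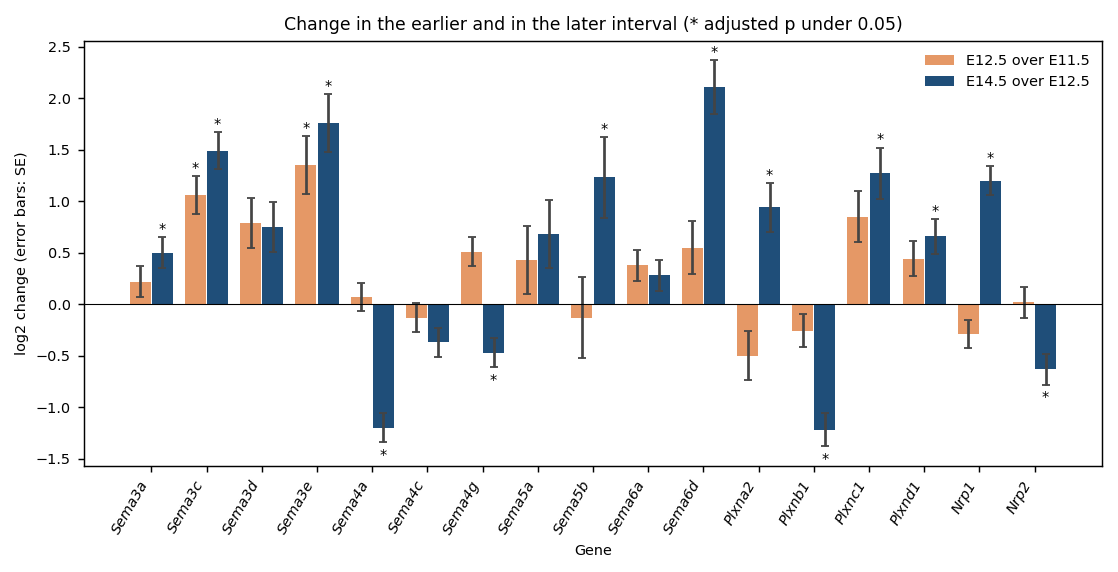
Log2 change of the 17 members called in any comparison, for E12.5 over E11.5 (orange) and E14.5 over E12.5 (blue), with the SE as bars and an asterisk at an adjusted p under 0.05. Sema3c and Sema3e carry an asterisk in both intervals, while Sema6d, Plxnb1, Sema4a and both neuropilins carry one in the later interval.

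Ligands and receptors that are known to pair are set side by side here by their log2 change between E11.5 and E14.5. No pair was tested as such. Sema3e (3.11) and its receptor Plxnd1 (1.10) both rose, and so did Sema3a (0.72) and Nrp1 (0.91). Sema3f (0.21) was not called while its co-receptor Nrp2 (-0.61) fell, and Sema4d (0.04) was not called while its receptor Plxnb1 (-1.48) fell. Sema7a (0.03) was not called while Plxnc1 (2.11) rose. Sema3c (2.55), a ligand of both neuropilins, rose while Nrp1 (0.91) rose and Nrp2 (-0.61) fell. In further pairs only the ligand was called. Sema4c (-0.49) fell beside Plxnb2 (0.13), Sema6d (2.66) rose beside Plxna1 (0.20), and Sema5a (1.11) rose beside Plxnb3 (0.76). Sema6a (0.66) rose beside Plxna2 (0.44) and Plxna4 (0.17). Not every known pair is listed.

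A list of 68 other genes of semaphorin signalling was read beside the members, and 60 of them were tested. Between E11.5 and E14.5, 18 rose and 4 fell, 30% and 6.67% of those tested, beside 22.9% and 17.7% of all genes. With arrays centred on their medians, 12 of these 22 changes were called. In the earlier interval 0 rose and 1 fell, 0% and 1.67% of those tested, beside 3.11% and 0.441% of all genes. In the later one 9 rose and 4 fell, 15% and 6.67%, close to the 12.6% and 9.32% of all genes. The binding partners and co-receptors gave 10 of the rises and 1 of the falls among 15 tested of 19 listed, beside the same 22.9% and 17.7% of all genes. Among the 15, Itga1, Nrcam and Mst1r passed the signal filter in the E14.5 arrays only, so they could be tested only because they were high there, and the count is no support for a rise of the group. Itga1 and Itgb1, which encode the integrin through which Sema7a also signals, changed by 2.93 ± 0.43 (adjusted p = 0.000641) and 0.80 ± 0.13 (adjusted p = 0.00118). The Itgb1 call was lost with arrays centred on their medians (adjusted p = 0.186) and with the mean of all probe sets (log2 change 0.32, adjusted p = 0.0988), and the Itga1 change was 1.26 with the floor at the median of all signals and 1.54 with the mean of all probe sets, still called. Itga1 went from 26.7, 38 and 11.1 at E11.5 to 297, 200.2 and 171 at E14.5, without overlap. Kdr, the endothelial receptor of vascular endothelial growth factor that joins Nrp1, rose by 1.83 ± 0.59 (adjusted p = 0.0322), and this call was lost with no filter (adjusted p = 0.104), in a fit of the 6 arrays compared (0.057), without the letter A arrays (0.107) and without array E11.5 A (0.0564), array E14.5 A (0.0602), array E14.5 B (0.0722) or array E14.5 C (0.0823). The Kdr change was 1.04 without array E11.5 B (adjusted p = 0.0437) and 1.11 with the floor at the median of all signals (0.00638). Nrcam, a cell adhesion molecule that binds neuropilins, rose by 1.45 ± 0.17 in the later interval (adjusted p = 0.000481), and so did Mst1r, a receptor tyrosine kinase that associates with B-type plexins (1.45 ± 0.20, adjusted p = 0.00119). The Nrcam call was lost with the mean of all probe sets (log2 change 0.68, adjusted p = 0.0595), and its change was 0.53 with the floor at the median of all signals. Met, a related kinase that binds Plxnb1, had signals of 722, 753 and 618 at E11.5, 484, 469.9 and 387 at E12.5 and 316, 309 and 325 at E14.5. Met thus fell without overlap in each interval (log2 change -1.14 ± 0.14, adjusted p = 0.00023 between the ends), and it was the gene of the list that was called lower between E11.5 and E12.5 (log2 change -0.64 ± 0.14, adjusted p = 0.0384). The Met call of the earlier interval was lost after quantile normalization (adjusted p = 0.0583), with arrays centred on their medians (0.62), with no filter (0.0553), with the mean of all probe sets (log2 change -0.4, adjusted p = 0.34), in a fit of the 6 arrays compared (0.0773), without the letter A arrays (0.135) and without array E11.5 A (0.112), array E11.5 B (0.114), array E12.5 A (0.0622), array E12.5 B (0.114), array E12.5 C (0.156), array E14.5 B (0.0644) or array E14.5 C (0.0584), and that of the later one with arrays centred on their medians (adjusted p = 0.344), with the mean of all probe sets (0.187), without the letter A arrays (0.189) and without array E12.5 A (0.109), array E12.5 B (0.103), array E14.5 A (0.0671), array E14.5 B (0.0762) or array E14.5 C (0.0677).

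Of the 41 tested genes of signalling below plexins, 7 rose and 3 fell between E11.5 and E14.5, with a median of 0.03. These shares, 17.1% higher and 7.32% lower, lay below the 22.9% and 17.7% of all genes tested. The collapsin response mediators, cytoplasmic proteins that relay Sema3a to microtubules, moved in different directions. Crmp1 fell from 661, 550.0 and 444 at E11.5 to 175, 120.2 and 157 at E14.5 (log2 change -1.87 ± 0.23, adjusted p = 0.000277), and Dpysl3 rose from 1182, 945 and 1049 to 4200.1, 3533 and 3473 (log2 change 1.82 ± 0.15, adjusted p = 2.61e-05). Both were without overlap, and Dpysl2, at 16011 ± 2599 and 12269 ± 234 (SD, n = 3), was not called (log2 change -0.37 ± 0.14, adjusted p = 0.0581). Dpysl2 was called lower with no filter (adjusted p = 0.0493), with a trended and robust prior (0.018) and without array E11.5 C (0.0334). Fyn, a kinase that acts below plexin A receptors, rose in the later interval (log2 change 1.09 ± 0.13, adjusted p = 0.000633), a call lost with arrays centred on their medians (adjusted p = 0.0579). Of 4 tested proteases that cleave semaphorins or their receptors, Mmp14, the membrane-bound matrix metalloproteinase, was called (log2 change 1.44 ± 0.20, adjusted p = 0.000507), and Furin, Adam10 and Adam17 were not. Without array E14.5 C, Furin was called between E11.5 and E14.5 (log2 change 0.54, adjusted p = 0.0159) and in the later interval (0.48, adjusted p = 0.0472). The list was written with earlier results of these data known.

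Other probe sets of the same genes were read as a check. Sema3c had a second probe set with a change of 2.28 between E11.5 and E14.5, and Sema3e had 3 more, at 3.72, 1.98 and 1.33. The second one of Sema3d changed by 1.20 with overlapping arrays, and by 0.02 in the later interval. In that interval the other probe sets of Plxna2 changed by 0.51, 0.38 and 0.44, all with overlapping arrays. Those of Sema5a (1.36 and 0.77 where above the filter) and Sema5b (0.90) had the same sign as the ones tested. Nrp1 was less uniform: 3 probe sets changed by 0.91, 0.92 and 0.82, and the remaining one by -0.34 with overlapping arrays. The 4 probe sets of Nrp2 changed by -0.61, -0.27, -0.19 and -1.14, all lower, but the arrays of the last 3 overlapped. The 3 of Sema3a changed by 0.72, 0.42 and 0.05, and the last 2 overlapped. Which transcript forms each probe set reads was not examined.

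**Figure D4:**
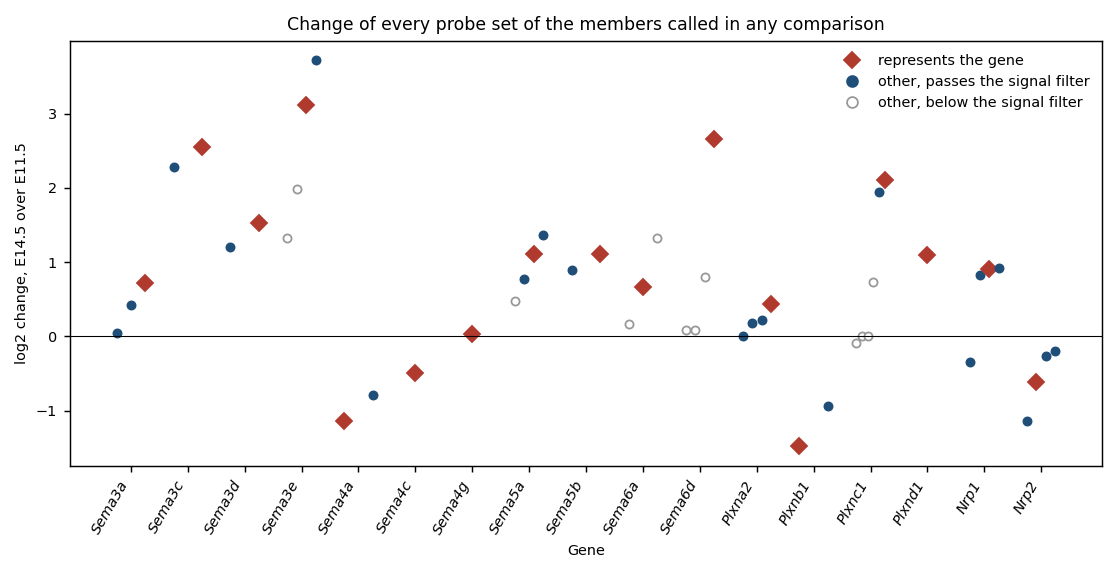
Log2 change between E11.5 and E14.5 (y axis) of every probe set of the 17 members called in any comparison (x axis); red diamonds are the probe sets that represent the gene, blue points other probe sets above the signal filter and open points those below it. The probe sets of Sema3c and Sema3e lie above 0 throughout, and 1 of the 4 of Nrp1 lies below 0, at -0.34.

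Markers of other cell types were read beside the members, since vessels, nerves and muscle use the same receptors. The sum of 8 endothelial markers was 374, 428 and 611 at E11.5, 675, 480.4 and 701 at E12.5 and 1102, 1121 and 1368 at E14.5. It was higher in every E14.5 array than in any earlier one, as were Plxnd1, Nrp1, Sema3e and Kdr. The same held for Sema3a, Sema3c, Sema3d, Sema5a, Sema5b, Sema6a, Sema6d, Plxna1 and Plxnc1, so this pattern was not particular to genes known from vessels. Tek, with means of 50.9 at E11.5 and 507.2 at E14.5, made up most of the rise of the sum. Of the 4 tested, Tek (3.24), Emcn (1.95) and Cdh5 (1.82) rose, and Egfl7 was not called (0.21 ± 0.25, adjusted p = 0.53). Without their E14.5 arrays, Tek, Emcn and Cdh5 would not have passed the signal filter. Their count is therefore no support for a rise of the group. The Emcn call was lost with no filter (adjusted p = 0.0544) and without the letter A arrays (0.0904), and that of Cdh5 without the letter A arrays (adjusted p = 0.0683). With the floor at the median of all signals the changes were 0.82 for Emcn and 0.38 for Cdh5, both called, and with the mean of all probe sets that of Cdh5 was 1.12. The defining markers Pecam1, with means of 47.1 at E11.5 and 50 at E14.5, and Tie1, at 11.4 and 9.88, stayed below the filter in all arrays. Esam exceeded it in 2 arrays and Cldn5 in 1, too few to be tested. Their part in the changes of the members was not tested.

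For glia, 4 markers summed to 933, 829 and 986 at E11.5 and 1697, 1661 and 1479.8 at E14.5. Ngfr rose (1.85), from a mean of 306 to 1097, and Erbb3, the other tested one, went from 507 to 414 without a call (-0.28 ± 0.17). In the later interval Erbb3 fell (log2 change -0.72 ± 0.17, adjusted p = 0.0157), a call lost with arrays centred on their medians (adjusted p = 0.154), with the mean of all probe sets (log2 change -0.36, adjusted p = 0.082), without the letter A arrays (0.0653) and without array E12.5 A (0.0584) or array E14.5 C (0.0561). Sox10 exceeded the filter in 2 arrays, E11.5 C and E12.5 C, and Foxd3 in none. For neurons, 6 markers summed to 1853, 1533 and 1370.1 at E11.5 and 1389, 1729 and 1714 at E14.5, with 2 called higher and 2 lower, among them Isl1 (lower). For skeletal muscle, 6 markers summed to 2427, 1455 and 1758 at E11.5 and 3756, 3238 and 2791 at E14.5. Of the 6, 3 rose, beside 22.9% of all genes: Pax7 (2.30), Myog (1.41) and Des (1.19). Acta1 (1.10), Myod1 (-0.13) and Myf5 (-0.71) were not called. The Des arrays of the 2 stages overlapped. Its call was lost under several alternatives, among them the mean of all probe sets (log2 change 0.52, adjusted p = 0.275) and leaving out the letter A arrays (0.14). The 7 macrophage and blood markers summed to 182, 255 and 153 at E11.5 and 434, 562 and 431 at E14.5, and 1 was tested, Csf1r, which rose, a call lost after quantile normalization (adjusted p = 0.151), with arrays centred on their medians (0.188), without the letter A arrays (0.0568) and without array E14.5 A (0.0538). Pax7 and Csf1r would not have passed the signal filter without their E14.5 arrays. Of the 5 tested epithelial markers, Epcam (0.64), Krt5 (1.15) and Cdh1 (1.57) rose and Krt8 (-0.83) fell. The Epcam call was lost with arrays centred on their medians (adjusted p = 0.341), and that of Krt5 after quantile normalization (adjusted p = 0.059), with arrays centred on their medians (0.0632) and without the letter A arrays (0.0734). That of Cdh1, which passed the filter in the E14.5 arrays only, was lost with the floor at the median of all signals (log2 change 0.49, adjusted p = 0.052), and that of Krt8 with no filter (adjusted p = 0.0637), with the mean of all probe sets (0.103), with a trended and robust prior (0.0521) and without array E11.5 B (0.0825), array E11.5 C (0.0548), array E14.5 B (0.0526) or array E14.5 C (0.0645). The 6 epithelial markers summed to 1052, 916 and 1058 at E11.5 and 1314, 1433 and 1229 at E14.5. The part of these cell types in the changes of the members was not tested. The 4 limb mesenchyme markers, of which none was called between E11.5 and E14.5, summed to 16300.4, 19515 and 16121 at E11.5 and 13494, 15369 and 16228 at E14.5.

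**Figure D5:**
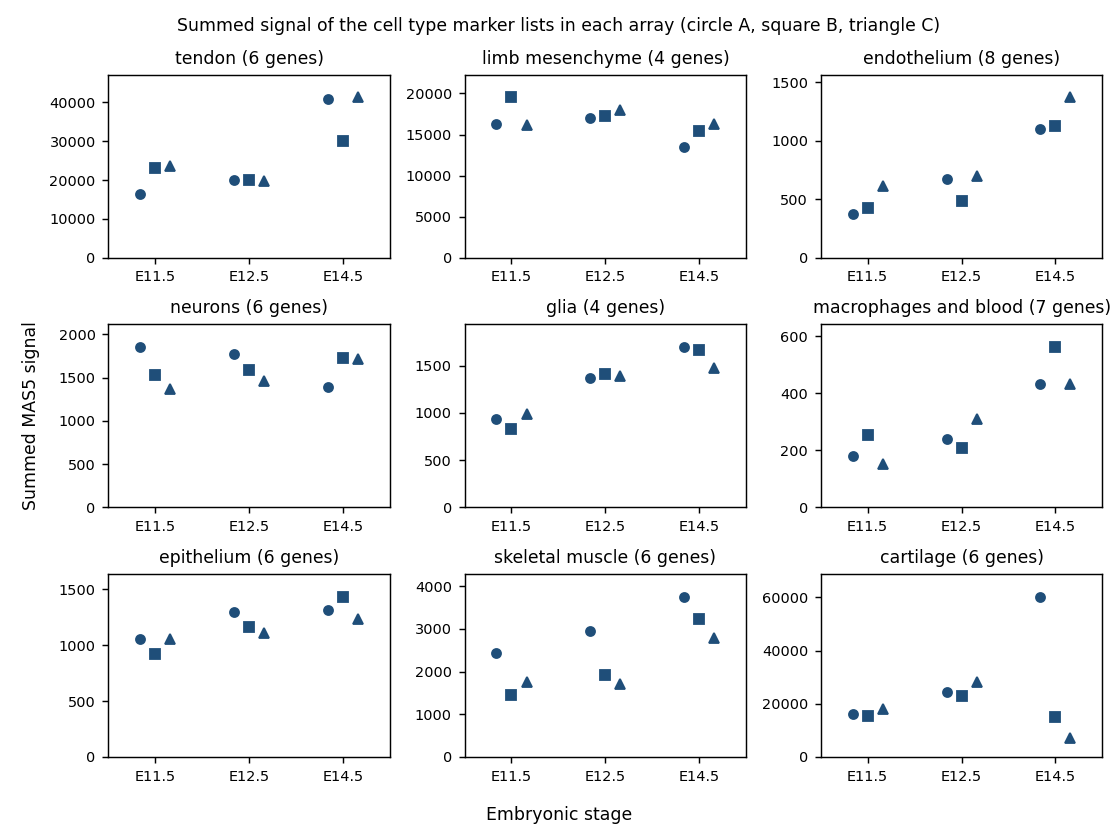
Summed MAS5 signal (y axis, from 0) of 9 lists of cell type markers in each array, by stage, with circles for array A, squares for B and triangles for C. The endothelial sum is highest in the E14.5 arrays, and the cartilage sum of E14.5 A (60289) stands above that of every other array.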

How the data were processed

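RNA of sorted Scx-GFP forelimb cells was hybridised to Affymetrix Mouse Genome 430 2.0 arrays, 3 for each of 3 stages. The deposited values are intensities on a linear scale, 1 signal per probe set and array, which, per the submitters' processing notes, the authors computed with MAS5 (Affymetrix Expression Console 1.1). The mean signal without the lowest and highest 2% was 500 in every array. Detection calls were not used here, and no further normalization was applied. Precision is limited by having 3 arrays a stage.

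Of 45101 probe sets, 34945 had 1 gene symbol in the platform annotation, 932 had several, 9160 were not listed and 64 were controls. Those with 1 symbol were used, and all 31 member symbols matched RefSeq. Each gene took its brightest probe set by mean log2 signal over all 9 arrays, and one with the suffix _x_at only where it had no other. Signals under 22.7, the 25th percentile, were raised to that floor, and log2 values were used. Testing required a signal over 90.6, which is the overall median, in 3 or more arrays. A single model of all 9 arrays with 1 mean per stage was fitted to 11575 genes with limma 3.58.1 in R 4.3.3 (6 residual degrees of freedom), and two-sided contrasts were adjusted by Benjamini-Hochberg over all genes. Errors of log2 changes are standard errors from the fit, and the procedure was tested on simulated data. Promoter windows were taken from RefSeq.

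The letters A, B and C were checked as pairs. After the stage means were removed, arrays of the same letter correlated across genes at 0.520, 0.133 and 0.332 between E11.5 and E12.5, at 0.310, 0.121 and 0.289 between E12.5 and E14.5, and at 0.313, -0.00516 and 0.238 between E11.5 and E14.5. The letters therefore passed as pairs in the comparisons with E12.5, where the blocked value is given if a call changed. What the letters stand for is not given in the sources used here. The median signal of the arrays rose from A to C at each stage, and the part of this difference in the correlations was not tested.

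Values per array are given for every member called in any comparison, and for others by example. Of the list of further pathway genes, up to 4 called genes per comparison with the largest change are named, and Itgb1, Fyn, Mmp14, Dpysl2, Furin, Adam10 and Adam17 were added after their values were seen. The members, lists and alternatives were chosen with earlier results of these data known. The alternatives were another normalization, floor, filter, choice of probe sets or prior, the letter as a block, a fit of the 2 stages compared, and leaving out arrays.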

Additional observations from a re-analysis of the deposited data

How the results depend on the processing

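Of the 30 member calls in the 3 comparisons of stages, 9 held under all 19 alternatives, and none of the 30 changed direction. The 9 were Sema3c, Sema3d, Sema3e, Sema6d, Plxnc1 and Plxnb1 between E11.5 and E14.5, and Sema3c, Plxnb1 and Nrp1 between E12.5 and E14.5. With arrays centred on their medians, 7 members rose and 2 fell between E11.5 and E14.5 (11 and 4 as reported), 1 rose in the earlier interval (2 as reported) and 2 fell in the later one (4 as reported). The shares of all genes were then 11%, 9.14%, 1.37% and 2.34%, in the same order. Centring also left 12 of 22 changed pathway genes and 0 members with unequal intervals (1 as reported). In the earlier interval 1 member rose after quantile normalization, with the floor at the median of all signals, with no floor or with no filter, and 0 with the mean of probe sets. Beside them, 2.32%, 2.71%, 2.77%, 0.846% and 1.17% of all genes were called higher, in the same order. The mean of probe sets gave 4 rises (9 as reported) and 2 falls in the later interval, beside 9.84% and 6.66% of all genes. Without the letter A arrays 2 members fell between E11.5 and E14.5 and 2 in the later interval, beside 10.9% and 2.58% of all genes. Members with unequal intervals numbered 2 with the floor at the median, and 0 with no floor, no filter, the mean of probe sets or without the letter A arrays. Leaving out 1 array at a time gave 0 to 3 rises in the earlier interval, 5 to 9 rises and 2 to 4 falls in the later one, and 0 to 1 members with unequal intervals. In these fits 0.976% to 3.65% of all genes were called higher in the earlier interval. In the later one 8.73% to 13% were called higher and 4.79% to 9.48% lower. The cause of these differences was not tested.

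With the letter as a replicate block, 11 members rose and 4 fell between E11.5 and E14.5, beside 25% and 20.4% of all genes. In the earlier interval 3 rose, beside 3.92%, and in the later one 11 rose and 3 fell, beside 14.8% and 11.9%. Beyond the 4 calls named with the results, the block changed no other call of a member. Dim probe sets limit what can be read: 2 members had too little signal to be tested, and Sema3e and Sema4a lie close to the floor or filter at some stages.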
